A study of Mus musculus with 6 samples.

Results

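The genes described here encode 6 cell-surface antigens, members of the Ly6 family or markers used to sort mouse mammary epithelial and stem cells: Ly6a, Ly6c1, Ly6e, Cd24a, Cd44 and Procr. They were taken by symbol from the deposited table, which listed all 6 among its 11417 genes. The set was chosen by name with measured values in view: Ly6c1 was selected on its RPKM in HC11 against C57MG, where it is among the largest differences in favour of C57MG. The values of all 6 genes in HC11 against C57MG, and those of Ly6c1 in every comparison, are therefore given as a description with no test. The values come from sequencing of poly(A) RNA in 3 established lines labelled as mouse mammary epithelium (BC44, HC11 and C57MG), with 2 libraries each, from untreated cells grown on plastic and harvested 2 days after plating. All lines had 10% serum. BC44 had RPMI medium with 5 µg/ml insulin, HC11 had the same medium and insulin with 10 ng/ml epidermal growth factor, and C57MG had DMEM with 10 µg/ml insulin. Line and medium cannot be told apart. As background that the labels do not give, HC11 was derived from BALB/c mammary cells and C57MG from a C57BL mouse. Between HC11 and C57MG, line and strain therefore cannot be told apart either. The strain of BC44 is not given in the sources used here. The labels do not say whether the libraries of a line came from separate cultures, so the p-values measure only the spread between these libraries.

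Ly6 proteins are small, cysteine-rich surface proteins held in the membrane by a glycosylphosphatidylinositol (GPI) anchor, and many of their genes lie in 1 cluster on mouse chromosome 15. Ly6a is Sca-1, a marker of blood stem cells and, in the mammary gland, of part of the luminal cells. Ly6c1 encodes a Ly6C antigen, known from endothelial cells and leukocytes, and Ly6e an antigen known for its effects on virus entry. Several Ly6 genes respond to interferons. CD24, also GPI-anchored, is the antigen most often paired with integrin beta-1 or alpha-6 to separate mammary stem-cell-enriched, luminal and stromal cells. CD44 is the main receptor for hyaluronan, a sugar polymer of the matrix. PROCR, the endothelial protein C receptor, binds activated protein C and has been used to mark a mammary stem-cell population.

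Sequences of 3 Ly6 genes bear on how their values can be read, because reads from matching stretches can be counted for more than 1 of them. The first 75 coding bases of Ly6a, Ly6c1 and Ly6c2, read from GENCODE release M21 (build GRCm38), are shown 5′ to 3′. Ly6c1 is all in lower case, and capitals in the other lines mark bases that differ from it.
Ly6c1: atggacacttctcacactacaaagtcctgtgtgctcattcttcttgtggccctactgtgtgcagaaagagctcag
Ly6a: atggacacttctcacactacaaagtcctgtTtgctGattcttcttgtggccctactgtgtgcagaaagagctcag
Ly6c2: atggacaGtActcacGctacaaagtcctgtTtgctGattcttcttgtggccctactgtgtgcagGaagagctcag
In this stretch Ly6a differed from Ly6c1 at 2 positions and Ly6c2 at 6. Over the whole coding sequence the order was the other way, with 97.7% of 393 aligned bases identical between Ly6c1 and Ly6c2 and 83.7% between Ly6c1 and Ly6a. Of all 50-base windows in Ly6c1 transcripts 32.8% were found unchanged in transcripts of another gene, 21.5% in Ly6c2 and 11.1% in Ly6a. Of Ly6a windows 19% were shared, 15% with Ly6c1. For Cd24a 2.75% were shared, all with a processed pseudogene, and for Ly6e, Cd44 and Procr the count was 0. How the authors assigned reads that fit several genes is not given in the sources used here, so the values of Ly6c1 and Ly6a are uncertain where 1 is low and the other high. Ly6c2 was not found among the listed genes. The part of Ly6c2 reads in any Ly6c1 value, including those of C57MG, was not tested.

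Promoters of 3 of the 6 genes matched by symbol in RefSeq's sequences (build GRCm38.p6), each covering 250 bases before to 50 after a start site. They are shown for Ly6c1 and for Ly6f, a Ly6 gene of the same cluster that was, like Ly6c1, highest in C57MG, and for Procr, which was highest in HC11. Capitals mark a match to the TATA box spelling TATAAA, searched on the forward strand only and at any distance from the start site. They also mark an AP-1 site, spelled TGANTCA and searched on both strands.
Ly6c1, chr15:75048788-75049087, minus strand: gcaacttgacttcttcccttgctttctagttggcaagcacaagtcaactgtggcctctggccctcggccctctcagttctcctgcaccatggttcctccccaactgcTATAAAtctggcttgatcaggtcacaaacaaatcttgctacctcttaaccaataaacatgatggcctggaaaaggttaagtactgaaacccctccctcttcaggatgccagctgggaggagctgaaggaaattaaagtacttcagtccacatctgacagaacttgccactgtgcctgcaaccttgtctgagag
Ly6f, chr15:75268171-75268470, plus strand: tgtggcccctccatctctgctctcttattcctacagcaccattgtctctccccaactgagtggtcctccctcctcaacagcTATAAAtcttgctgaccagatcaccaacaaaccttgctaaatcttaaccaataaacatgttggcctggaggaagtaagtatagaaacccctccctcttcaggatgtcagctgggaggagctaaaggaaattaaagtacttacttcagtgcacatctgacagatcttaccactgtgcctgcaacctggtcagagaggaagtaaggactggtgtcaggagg
Procr, chr2:155750967-155751266, plus strand: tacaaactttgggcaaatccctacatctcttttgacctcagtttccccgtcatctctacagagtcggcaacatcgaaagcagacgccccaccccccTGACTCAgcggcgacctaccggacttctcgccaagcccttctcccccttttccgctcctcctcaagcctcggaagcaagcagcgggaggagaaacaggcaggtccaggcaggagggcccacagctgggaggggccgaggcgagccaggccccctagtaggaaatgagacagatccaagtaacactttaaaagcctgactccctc
The Ly6c1 and Ly6f windows aligned over 204 bases, of which 182 (89.2%) were identical. TATAAA stood at position -143 from the start site in Ly6c1 and at -169 in Ly6f, and 8.32% of all 32851 promoters in the table hold it. The window of the second Ly6c1 start site held none. Whether these matches act as TATA boxes was not tested. The single match in Procr was TGACTCA at -154, and 7.81% of promoters hold an AP-1 match. A search on both strands for TTCNNNGAA (a GAS element, in 8.3% of promoters) and for a pair of GAAA 2 bases apart (an interferon-stimulated response element, in 3.44%) gave no match in these windows or in those of Cd44 and the second Ly6c1 start site.

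Levels are in RPKM, that is, read numbers scaled to the length of a gene and the size of a library. Depth, estimated from the steps between low values, was 14130000 to 18400000 reads per library, and the estimated read numbers below cover counting error only. The general epithelial markers were mostly low in C57MG, against its label of mammary epithelial cell. Of 18 epithelial markers 16 were listed, with a mean of at least 1 RPKM for 16 in HC11, 12 in BC44 and 2 in C57MG. Their summed level was 5140.3 to 5362 RPKM in BC44, 2489 to 3379 in HC11 and 65.5 to 139 in C57MG. The 17 listed of 19 mesenchymal markers summed to 7571 to 7787 RPKM in C57MG, against 423 to 524 in BC44 and 351 to 398 in HC11. Of 7 listed basal mammary markers each line had 5 at a mean of at least 1 RPKM, summing to 4670.0 to 4825 RPKM in BC44, 1812 to 2624 in HC11 and 227 to 265 in C57MG. The 6 listed luminal markers summed to 298 to 369 RPKM in HC11, 37.3 to 48.1 in C57MG and 1.36 to 2.76 in BC44. Krt5 and Krt14 were on both the epithelial and basal lists, and Krt8, Krt18 and Krt19 on both the epithelial and luminal lists. These sums can therefore share genes. The basal list also holds the contractile genes Acta2, Myh11, Mylk, Cnn1 and Tagln, so its count does not by itself name a cell type. Because Ly6a, Ly6c1 and Procr also mark endothelial cells and leukocytes, markers of these were summed. The 4 listed of 14 endothelial markers reached 9.73 to 11.5 RPKM in C57MG and 2.72 to 5.79 in the other lines, and the single listed leukocyte marker of 13, Cd68, reached 1.36 to 3.3 RPKM. The others of these markers were not analysed here. In bulk RNA, fewer cells with a transcript and less of it per cell cannot be told apart.

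The 6 antigen genes split the lines in different ways, so no line was high or low for all of them. Ly6a and Ly6e were high in BC44 and C57MG and lower in HC11, Ly6c1 was high in C57MG alone, Cd24a was highest in BC44, and Cd44 and Procr were highest in HC11. When BC44 was set against HC11, all 5 tested genes passed (limma adjusted p under 0.05), with 3 higher in BC44 and 2 in HC11. Of all 10759 tested genes 47.7% passed in this comparison, with BC44 higher for 24.7% and HC11 for 23.0%. When BC44 was set against C57MG, 2 of the 5 passed, Cd24a and Procr, both higher in BC44, against 71.7% of all genes in either direction and 37.5% higher in BC44. The libraries of the lines did not overlap for 6 of 6 genes in BC44 against HC11 (73.0% of all genes), 5 of 6 in BC44 against C57MG (87.9%) and 6 of 6 in HC11 against C57MG (86.2%). The median absolute log2 difference of the 6 genes was 2.24, 0.85 and 3.29 in the same order, against 0.30, 0.57 and 0.53 over all genes, and 1.59, 0.31 and 1.85 without Ly6c1. The values in HC11 against C57MG, where Ly6c1 was picked, describe chosen genes and are no result about the set. The first comparison shares its HC11 libraries with it, and the second its C57MG libraries.

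**Figure D1:**
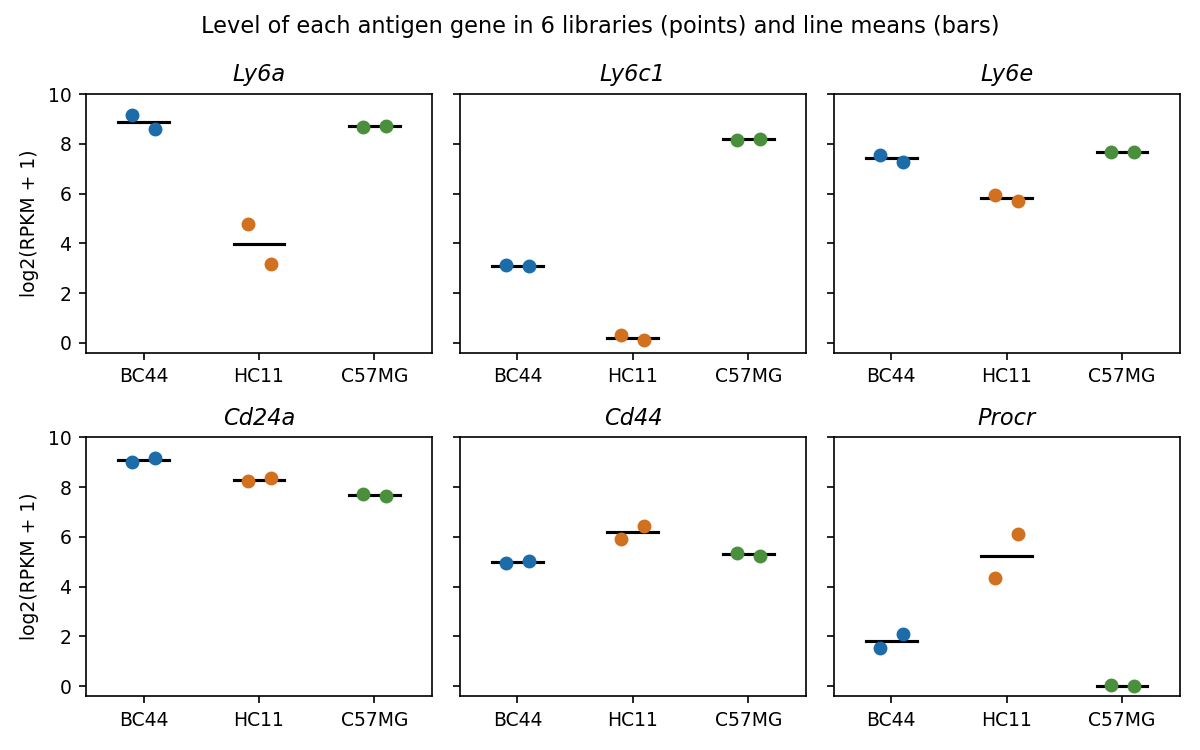
Level of the 6 antigen genes as log2(RPKM + 1) (vertical axis) in the 2 libraries (points) of BC44, HC11 and C57MG, with the line mean as a bar. Ly6c1 is near 8 only in C57MG, Ly6a and Ly6e are lowest in HC11, and Procr is highest in HC11 with its libraries apart.

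Ly6a (ENSMUSG00000075602, chromosome 15), the Sca-1 gene, was among the most abundant transcripts of BC44 and C57MG and far lower in HC11. BC44 replicates 1 and 2 had 573 and 383 RPKM, the C57MG pair had 412 and 424, and the HC11 pair 26.8 and 7.92. By level it ranked 52 and 99 among the genes of the BC44 libraries, 77 and 73 for C57MG, and 2597 and 6139 for HC11. The HC11 libraries lay below all others, while those of BC44 spanned both C57MG libraries. BC44 averaged 478 ± 135 RPKM, C57MG 418 ± 8.39 and HC11 17.3 ± 13.3 (SD, n = 2 each). BC44 exceeded HC11 27.6-fold, by 4.90 on the log2(RPKM + 1) scale (SE 0.46, limma adjusted p 0.000139), and by 5.72 without HC11 replicate 1 and 4.08 without HC11 replicate 2. Between BC44 and C57MG the log2 difference was 0.16 (SE 0.46, limma adjusted p 0.767), and its sign turned to -0.13 without BC44 replicate 1. The replicates stood further apart than for most genes: in HC11 by 1.64 on the log2 scale, a distance reached by 0.149% of tested genes, and in BC44 by 0.58, reached by 1.29%.

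Ly6c1 (ENSMUSG00000079018, chromosome 15) was high in C57MG alone. C57MG replicates 1 and 2 had 284 and 291 RPKM, the BC44 pair had 7.7 and 7.51, and the HC11 pair 0.25 and 0.081. The 3 lines formed separate steps with no overlap. C57MG (288 ± 4.82 RPKM, SD, n = 2) stood 37.8-fold above BC44 (7.6 ± 0.129), a log2 difference of 5.07. For HC11 the estimated reads were 7.7 and 1.9, or 10 in all after rounding, which gave a ratio of 1569.6 for C57MG over HC11 with a 95% exact Poisson interval of 853 to 3273. The interval covers counting error only and is no test, and the HC11 libraries differed 3.09-fold from each other.

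Values of 2 kinds lie beside the low levels of Ly6c1. As a share of Ly6a in the same library, Ly6c1 was 1.34% and 1.96% in BC44 and 0.934% and 1.02% in HC11, against 69% and 68.7% in C57MG. The part of shared Ly6a reads in these levels was not tested. BC44 libraries also carried a low signal of genes private to C57MG. For each library these are genes whose C57MG mean reaches 20 RPKM and whose level, relative to that mean, does not pass 2% in the third line or 5% in the line's other replicate. Their median was 0.662% of the C57MG level in BC44 replicate 1 (72 genes) and 2.01% in replicate 2 (71 genes), while Ly6c1 was at 2.67% and 2.61%. At the median share Ly6c1 would be at 1.9 and 5.78 RPKM, below the 7.7 and 7.51 RPKM listed. Single private genes reached 5.1% and 4.45% in these libraries, so Ly6c1 lay within their range. Ly6c1 was left out of the private genes but meets the same limits, so lying in that range says little. Within 2-fold of the median lay 65.3% of the private genes in BC44 replicate 1 and 97.2% in replicate 2. In HC11 the medians were 0.251% and 0.35%, and Ly6c1 was lower, at 0.0869% and 0.0282%. The part of such signal in the BC44 level of Ly6c1 was not tested.

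**Figure D2:**
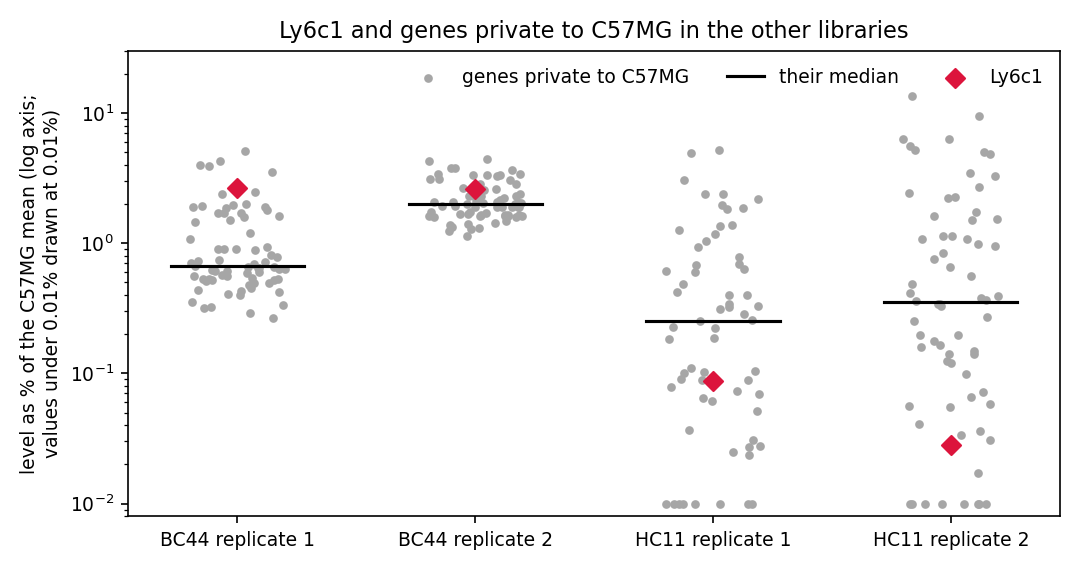
Level of genes private to C57MG (grey points), their median (bar) and Ly6c1 (diamond) in the BC44 and HC11 libraries, as a percentage of the C57MG mean on a log axis, with values under 0.01% drawn at 0.01%. Ly6c1 lies above the median in both BC44 libraries, at 2.67% and 2.61%, and below it in both HC11 libraries.

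Ly6e (ENSMUSG00000022587, chromosome 15) followed Ly6a with a smaller range. The BC44 libraries had 187 and 155 RPKM, the C57MG libraries 206 and 202, and the HC11 libraries 59.8 and 51.9. HC11 was again lowest, and the BC44 libraries lay just under those of C57MG. BC44 (171 ± 23.1 RPKM) exceeded HC11 (55.8 ± 5.59, SD, n = 2 each) 3.06-fold, a log2 difference of 1.59 (SE 0.11, limma adjusted p 3.19e-05). Against C57MG (204 ± 2.82) BC44 differed by -0.26 (SE 0.11, limma adjusted p 0.0713). That difference passed in 6 of the alternatives run, among them without BC44 replicate 1 (-0.39, limma adjusted p 0.0232) and without either HC11 library (0.047 and 0.0466), and over all alternatives the adjusted p ran from 0.0232 to 0.385.

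Cd24a (ENSMUSG00000047139, chromosome 10), the gene of heat-stable antigen, was abundant in all lines and stepped down from BC44 to HC11 to C57MG. The BC44 libraries had 517 and 571 RPKM, those of HC11 304 and 326, and those of C57MG 213 and 199.7. No libraries of different lines overlapped. BC44 (544 ± 38.5 RPKM) was 1.73-fold above HC11 (315 ± 15.6, SD, n = 2 each), a log2 difference of 0.79 (SE 0.09, limma adjusted p 0.000283). It was 2.63-fold above C57MG (206 ± 9.65), a difference of 1.39 (SE 0.09, limma adjusted p 4.70e-06). HC11 was 1.52-fold above C57MG. C57MG, where 2 of the 16 listed epithelial markers reached a mean of 1 RPKM, held 38% of the BC44 level of Cd24a, while Epcam, another epithelial sorting antigen, was at 0.949 and 0 RPKM there against 118 and 92.1 in BC44.

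Cd44 (ENSMUSG00000005087, chromosome 2), the hyaluronan receptor gene, was highest in HC11. The HC11 libraries had 59.7 and 85.7 RPKM, those of C57MG 39.9 and 37, and those of BC44 30.1 and 31.6. The lines did not overlap, and the HC11 libraries were the furthest apart. HC11 (72.7 ± 18.4 RPKM) exceeded BC44 (30.8 ± 1.05, SD, n = 2 each) 2.36-fold, a log2 difference of 1.19 (SE 0.16, limma adjusted p 0.000701). BC44 differed from C57MG (38.4 ± 2.04) by -0.31 (SE 0.16, limma adjusted p 0.111). This difference passed when the HC11 libraries were left out of the fit (limma adjusted p 0.0101 with only the 4 libraries compared) or when either of them was (0.00946 and 0.00968), and its adjusted p ran from 0.00946 to 0.298 over the alternatives. Gene-level values do not separate the splice forms of CD44.

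The balance of Cd24a and Cd44, which are read together in sorting, was also computed, a ratio chosen after the values were seen. Per length, Cd24a was 17.2 and 18.1 times Cd44 in the BC44 libraries, against 5.09 and 3.8 times for HC11 and 5.35 and 5.4 times for C57MG. BC44 stood apart, and the C57MG libraries lay above both HC11 libraries.

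Procr (ENSMUSG00000027611, chromosome 2) had, on the log2(RPKM + 1) scale, the widest range among lines after Ly6c1 and the widest spread within one. HC11 replicates 1 and 2 had 19.5 and 69.1 RPKM, the BC44 pair 1.89 and 3.3, and the C57MG pair 0.027 and 0. The C57MG values correspond to an estimated 1.0 and 0.0 reads. Both HC11 libraries exceeded both BC44 libraries, and these exceeded both C57MG libraries. HC11 (44.3 ± 35 RPKM) was 17.1-fold above BC44 (2.59 ± 1, SD, n = 2 each), a log2 difference of 3.43 (SE 0.50, limma adjusted p 0.00117). BC44 minus HC11 was -4.31 without HC11 replicate 1 and -2.54 without HC11 replicate 2. C57MG was at or under a floor of 3 reads per library. Against that floor the mean of BC44 was at least 29-fold higher for Procr, and that of HC11 at least 495-fold higher. The BC44 limit was 21.1-fold with replicate 1 alone and 36.9-fold with replicate 2 alone. The HC11 limit was 218-fold with replicate 1 alone and 773-fold with replicate 2 alone. The fitted BC44 difference from C57MG was 1.80 (SE 0.50, limma adjusted p 0.0129), and it did not pass without BC44 replicate 2 (1.51). With only the 4 libraries compared it was again 1.80 (limma adjusted p 8.80e-05). With a pseudocount of 0.1 it was 4.53 (limma adjusted p 0.000388). The HC11 replicates differed by 1.77 on the log2 scale, a distance reached by 0.112% of tested genes. Replicate 2 was the higher for Procr and the lower for Ly6a in HC11 and also in BC44, but not in C57MG. The BC44 replicates of Procr differed by 0.58 on the log2 scale, a distance reached by 1.33% of tested genes.

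**Figure D3:**
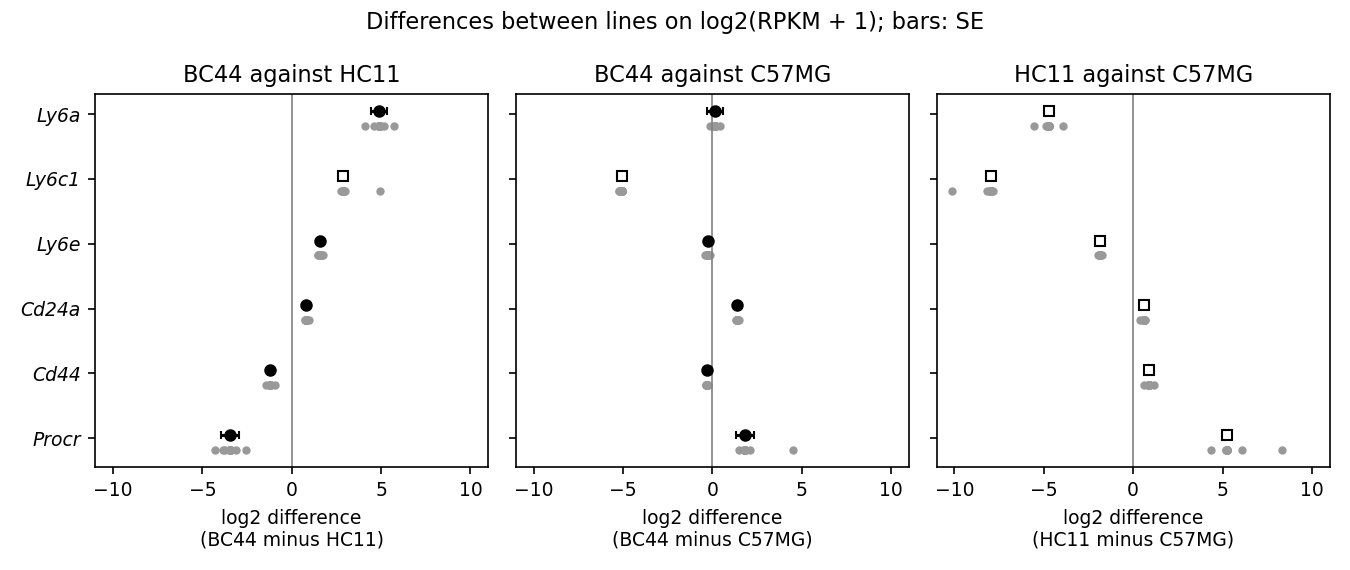
Log2 difference between lines on the log2(RPKM + 1) scale (horizontal axis) for each antigen gene, with its SE where tested (filled circles), without a test (open squares), and under each alternative (grey points). All 5 tested genes lie away from 0 in BC44 against HC11, and Ly6a, Ly6e and Cd44 lie near 0 in BC44 against C57MG.

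The other listed genes around the Ly6 cluster shared part of its pattern. Within 500 kb of the Ly6 genes above, 8 other genes were listed and tested: Mroh4, Arc, Jrk, Them6, Slurp1, Lynx1, Ly6d and Ly6f. In BC44 against HC11 5 of the 8 passed, all higher in BC44, with a median log2 difference of 0.91. Of all genes 47.7% passed in this comparison and 24.7% were higher in BC44, as were 26% of the rest of chromosome 15. In C57MG 7 of the 8 were higher than in BC44 (median log2 difference, BC44 minus C57MG, -1.54) and 7 than in HC11 (HC11 minus C57MG, -2.12), and Ly6d was lower there in both. Of all genes, 34.1% and 33.2% were higher in C57MG in these comparisons. The rest of chromosome 15 leaned the same way: of its 430 other tested genes 64% and 63.3% were higher in C57MG than in BC44 and HC11, with median differences of -0.59 and -0.58, against 0.04 and 0.03 over all genes. Between BC44 and HC11 its median was -0.02. The part of this chromosome-wide shift in the Ly6 values was not tested.

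Ly6d, a Ly6 gene known from skin and from early B cells, stood next to Ly6a in level but not in C57MG. BC44 had 406 and 273 RPKM of Ly6d, HC11 had 19.7 and 5.66, and C57MG had 2.4 and 0.469. Computed after the values were seen, Ly6d as a share of Ly6a was 70.9% and 71.4% in the BC44 libraries and 73.7% and 71.4% in those of HC11, although Ly6a differed 27.6-fold between these lines. In C57MG the share was 0.583% and 0.111%. The HC11 libraries held Ly6d at 5.8% and 1.66% of its BC44 mean, and Ly6a at 5.6% and 1.66%. Genes private to BC44 had medians of 2.38% and 1.21% there (18 genes for each library). Ly6d itself was among those for HC11 replicate 1, and its own 5.8% was their highest value. That value is therefore no separate measure to set beside Ly6d or Ly6a. For HC11 replicate 2 the highest value was 6.82%. The part of BC44-like signal in the HC11 levels of Ly6a and Ly6d was not tested. BC44 was above HC11 for Ly6d by 4.83 (SE 0.56, limma adjusted p 0.000393) and above C57MG by 7.22 (SE 0.56, limma adjusted p 1.59e-05).

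**Figure D4:**
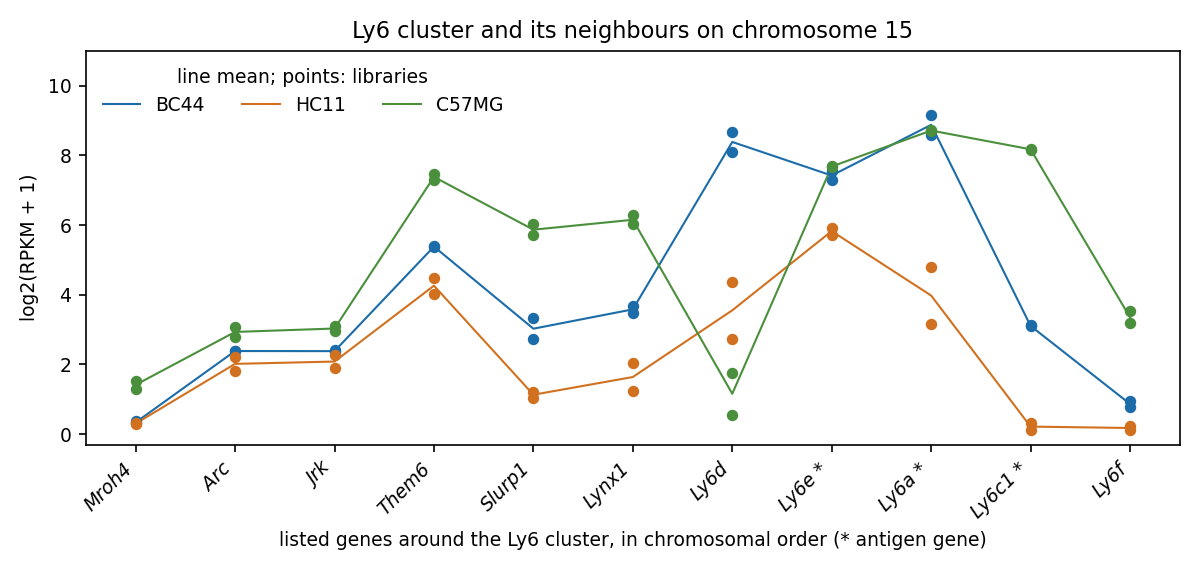
Level as log2(RPKM + 1) (vertical axis) of the 11 listed genes around the Ly6 cluster in chromosomal order, with points for libraries and lines joining the means of BC44, HC11 and C57MG. C57MG is highest for most genes outside Ly6d, where it is lowest. HC11 has the lowest mean at every gene but Ly6d, the antigen genes Ly6e, Ly6a and Ly6c1 among them.

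In the wider Ly6 and uPAR domain family the lines differed in both directions. Of 35 further family genes 8 were listed and tested, and 4 of these (Ly6d, Ly6f, Lynx1 and Slurp1) are also among the neighbours counted above. BC44 was higher than HC11 for 4 and lower for 3, BC44 was higher than C57MG for 3 and lower for 4, and HC11 was higher than C57MG for 3 and lower for 3. Over all genes the shares were 24.7% and 23.0%, 37.5% and 34.1%, and 37.4% and 33.2%. Lynx1, a Ly6 protein that modulates nicotinic acetylcholine receptors, was at 63.8 and 76.9 RPKM in C57MG, 11.9 and 10.1 in BC44 and 3.08 and 1.38 in HC11. Slurp1, a secreted relative, was at 51.2 and 64.2, 5.6 and 9.06, and 1.33 and 1.06 RPKM in the same order. C57MG was above BC44 by 2.57 for Lynx1 and 2.84 for Slurp1 (limma adjusted p 4.21e-05 and 1.11e-05). Lypd3, a GPI-anchored protein of stratified epithelia on chromosome 7, ran the other way, with 161 and 166 RPKM in HC11, 91.3 and 85.9 in BC44 and 0.612 and 0 in C57MG. Ly6f, named after its values were seen, was at 10.5 and 8.06 RPKM in C57MG and under 1 RPKM in the other lines.

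Other surface antigens used on mammary stem and progenitor cells differed between the lines in both directions. Of 24 genes 16 were listed and 14 tested, and 9 were higher in HC11 and 4 in C57MG (37.4% and 33.2% of all genes). Against BC44, HC11 was higher for 8 and lower for 3 (23.0% and 24.7% of all genes), and BC44 and C57MG were each higher for 5 (37.5% and 34.1%). Cd200, an inhibitory ligand for myeloid cells, had 91.2 and 59.6 RPKM in BC44 and 66.8 and 58 in HC11 but 0.45 and 0 in C57MG. Mme, the CD10 peptidase of basal mammary cells, was at 91.8 and 56.7 RPKM in BC44 but at 0.381 and 0.296 in HC11 and 0.405 and 0 in C57MG. BC44 exceeded HC11 for Mme by 5.77 (SE 0.24, limma adjusted p 3.47e-06). Nrp1, a co-receptor for semaphorins and VEGF, was at 29.6 and 27.2 RPKM in C57MG and at or under 1.32 RPKM in the other libraries.

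Of 14 genes that act with PROCR in the protein C and thrombin pathway 7 were listed and 6 tested. In C57MG, where Procr itself was at the floor, 5 of the 6 were higher than in BC44 and 5 than in HC11, against 34.1% and 33.2% of all genes. Between BC44 and HC11 each line was higher for 2, against 24.7% and 23.0% of all genes. Thbd, which encodes thrombomodulin, the thrombin receptor that activates protein C, was at 9.32 and 8.44 RPKM in C57MG, 1.2 and 2.52 in HC11 and 0.129 and 0.216 in BC44. Pros1, the gene of protein S, the cofactor of activated protein C, was at 24 and 22.7, 4.19 and 4.37, and 0.284 and 0.533 RPKM in the same order. Tfpi, an inhibitor of tissue factor, was at 7.05 and 6.65 RPKM in C57MG and at or under 0.168 RPKM in the other libraries. F2rl1, the protease-activated receptor PAR-2, was the exception, where BC44 had 19 and 15.6 RPKM, HC11 0.841 and 0.71 and C57MG 0.08 and 0. C57MG was above BC44 by 3.07 for Thbd, 4.12 for Pros1 and 2.82 for Tfpi (limma adjusted p 7.16e-06, 2.71e-07 and 3.76e-07), and BC44 was above C57MG by 4.13 for F2rl1 (2.75e-07).

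Partners of CD44 differed between the lines in both directions. Of 25 hyaluronan and CD44 partner genes 16 were listed and 14 tested. HC11 was higher than BC44 for 6 and lower for 3, and higher than C57MG for 10 and lower for 2, while BC44 was higher than C57MG for 7 and lower for 4. Of all genes, HC11 was higher than BC44 for 23.0% and lower for 24.7%, higher than C57MG for 37.4% and lower for 33.2%, and BC44 was higher than C57MG for 37.5% and lower for 34.1%. Spp1, which encodes osteopontin, a CD44 ligand, was at 2214 and 2413 RPKM in HC11 and 2741 and 2989 in C57MG against 67.8 and 103 in BC44. Ezr, which encodes ezrin, a linker of CD44 to the cytoskeleton, was at 226 and 253 RPKM in HC11, 81.4 and 73.2 in BC44 and 20.9 and 20.6 in C57MG. Esrp1 and Esrp2 encode splicing factors known to favour the variant exons of CD44. For Esrp1, BC44 had 52.4 and 47.8 RPKM, HC11 41.9 and 35 and C57MG 0.439 and 0. Esrp2 was at 35.1 and 31.6, 15.6 and 12, and 0.255 and 0 RPKM in the same order.

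The enzymes that build and attach the GPI anchor, on which Ly6 proteins and CD24 depend, differed between the lines in both directions. Of 31 genes 28 were listed and 27 tested. BC44 was higher than HC11 for 11 and lower for 5, and higher than C57MG for 15 and lower for 5, while HC11 was higher than C57MG for 12 and lower for 6. Over all genes BC44 was higher than HC11 for 24.7% and lower for 23.0%, and higher than C57MG for 37.5% and lower for 34.1%, while HC11 was higher than C57MG for 37.4% and lower for 33.2%. The median signed log2 differences of the list, in which opposite directions cancel, were 0.21, 0.41 and 0.22. Gpaa1, a subunit of the transamidase that attaches the anchor, was highest in C57MG at 33.6 and 31.5 RPKM, with 21 and 20.1 in HC11 and 10.9 and 9.12 in BC44. It lies on chromosome 15, whose shift is given above. Pgap2, which remodels the anchor's lipid, was lowest there at 4.15 and 4.27 RPKM, against 19.1 and 16.5 in BC44 and 13.9 and 10.9 in HC11. Pigh, a subunit of the enzyme for the first step, stood at 6 and 6.37 RPKM for BC44, 4.15 and 3.45 for HC11, and 1.08 and 1.44 for C57MG. Pgap1, which also acts on the anchor's lipid, was at 2.22 and 2.47, 1.87 and 2.06, and 0.288 and 0.251 RPKM in the same order.

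Of 16 interferon response genes, which as a group share inducers with several Ly6 genes, 12 were listed and 10 tested. C57MG was higher than BC44 for 8 and lower for 1, and higher than HC11 for 6 and lower for 2, while HC11 was higher than BC44 for 2 and lower for 0. Of all genes 34.1% were higher and 37.5% lower in C57MG than in BC44, and 33.2% higher and 37.4% lower than in HC11. HC11 was higher than BC44 for 23.0% of all genes and lower for 24.7%. Without C57MG replicate 1 or replicate 2, 3 genes passed in place of 8 in HC11 against C57MG. Isg15, a ubiquitin-like protein, was at 10.2 and 7.89 RPKM in C57MG, 1.54 and 1.21 in BC44, and 1.28 and 3.97 in HC11. Ifi44 was at 2.17 and 1.98 RPKM in C57MG and at or under 0.078 RPKM elsewhere. Irf1, a transcription factor of the interferon response, was at 16.7 and 20.1 RPKM in C57MG, 14.7 and 16.9 in HC11 and 4.44 and 5.59 in BC44. Gbp2, a guanylate-binding protein, was at 8.2 and 11.3, 7.73 and 18.9, and 1.66 and 1.98 RPKM in the same order.

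**Figure D5:**
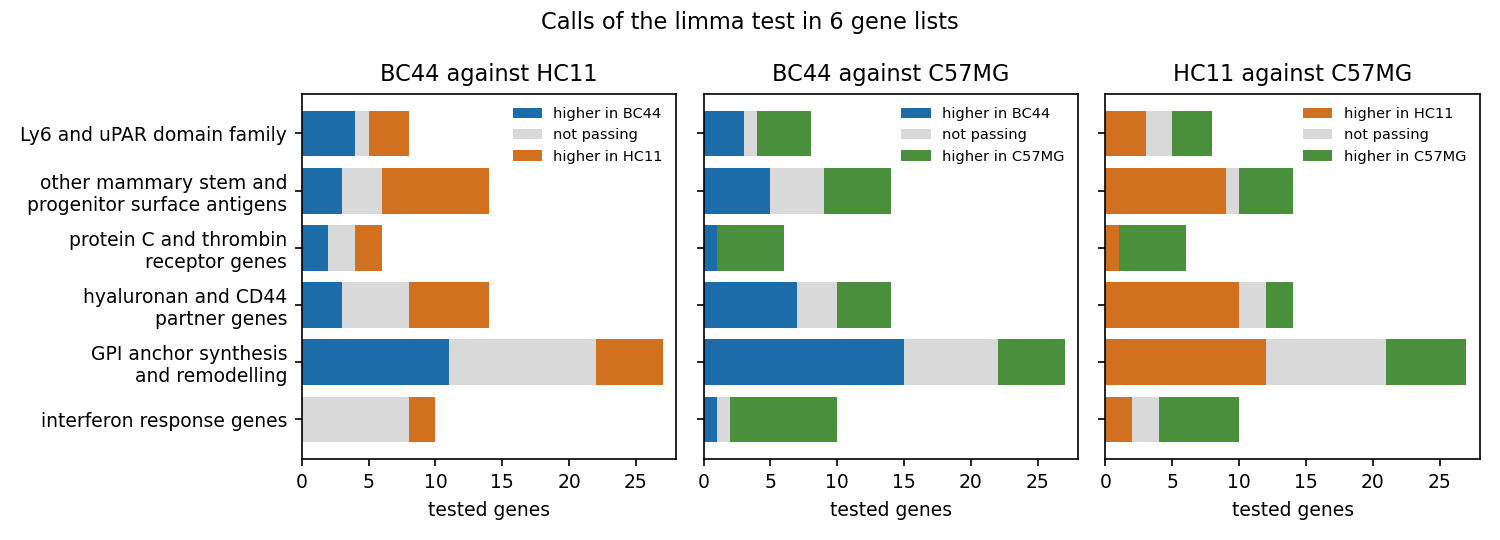
Number of tested genes (horizontal axis) in each of 6 gene lists that passed the limma test in either direction or did not pass, in each comparison of lines. The protein C list has 5 of 6 genes higher in C57MG in both comparisons with it, and the GPI anchor list has genes in both directions in all 3.

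The genes closest to each antigen in pattern were found by Pearson's r of log2(RPKM + 1) over the 6 libraries, which are 3 pairs of a line, so r is a description. For Ly6a they were Commd3, Sulf2 and Nox4 (r 0.9976, 0.9970 and 0.9957). Sulf2, an extracellular heparan sulfatase, stood at 59.5 and 47 RPKM for BC44, 41.2 and 37.6 for C57MG and 2.99 and 0.828 for HC11, with the order of the HC11 replicates seen in Ly6a. For Ly6c1 they were Drap1, Prss23 and Coro2b (0.9998, 0.9994 and 0.9993), and Prss23, a serine protease, was at 223 and 241 RPKM in C57MG, 15.1 and 17.6 in BC44 and 3.65 and 2.98 in HC11. The genes nearest to Ly6e were Ormdl3, Fam114a1 and Hmgn3 (0.9983, 0.9980 and 0.9980). Cd24a was closest to Hmgn5, Arih1 and Tmem184a (0.9992, 0.9991 and 0.9990), and Cd44 to Creb5, Raph1 and Dusp5 (0.9983, 0.9970 and 0.9963). Procr was closest to Zcchc4, Sod2 and Denr (0.9991, 0.9978 and 0.9978). Sod2, the mitochondrial superoxide dismutase, spanned only 22.1 to 50.8 RPKM, so likeness of pattern here does not mean a like size of change. Among the antigen genes themselves r was 0.98 between Ly6a and Ly6e, -0.97 between Ly6a and Cd44, and -0.93 between Ly6a and Procr.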

How the data were processed

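The deposited table gives 1 RPKM value per gene and library, computed by the authors (the unit is in the table's name) with 3 decimals. The submitters' processing notes name STAR and the genome build mm9. The counter, annotation, gene lengths, gene filter and use of strand are not given in the sources used here. Without strand, reads of overlapping antisense genes cannot be told apart. All 11417 gene IDs matched GENCODE release M21 (GRCm38), used for chromosomes, neighbours and exon lengths. Because that build differs from mm9, no gene coordinates from it are printed.

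Of these genes 10759, with at least 1 RPKM in at least 2 libraries, were tested with limma (version 3.58.1, run under R 4.3.3, empirical Bayes with a mean-variance trend) on log2(RPKM + 1), the 6 libraries sharing 1 spread. All 6 antigen genes passed the filter. P-values are two-sided and Benjamini-Hochberg adjusted over all tested genes of a comparison, with a threshold of 0.05. Fold changes on the log2(RPKM + 1) scale understate the change of low genes. With 2 libraries a line, exact permutation could give no p under 0.33 and was not used. The model was tested on simulated data. Depth came from the steps of low RPKM values times exon length: 77.2% to 80.8% of 183 to 324 low values per library lay within 0.15 of a whole read, against 30% by chance. Sequence comparisons used Python 3.11.15 and biopython 1.88.

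The genes, lists and limits were chosen with earlier results of these data known. Named were the 6 antigen genes, up to 4 genes per list with the widest range of line means, and the 3 genes most like each antigen in pattern. Ly6f, its promoter and the ratios between antigen genes were chosen after their values were seen.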

Additional observations from a re-analysis of the deposited data

How the results depend on the processing

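Single choices were varied in turn: the pseudocount (0.1), the filter (none, or a mean of at least 5 RPKM), the scaling (quantile normalization or median ratios), the fit (only the 4 libraries compared, no trend, or a replicate block), and each library left out. All 5 tested antigen genes passed between BC44 and HC11 under every one of these. Between BC44 and C57MG 2 passed, but 4 with only the 4 libraries compared and 1 to 4 when single libraries were left out, 1 without BC44 replicate 2 and 4 without either HC11 library. Ly6e passed there under quantile normalization (-0.35), with only the 4 libraries compared (-0.26) and with the replicate block (-0.26, limma adjusted p 0.0302), and ran from -0.39 to -0.12 over left-out libraries. Cd44 passed with only the 4 libraries compared (-0.31), and ran from -0.36 to -0.26. Procr ran from 1.51 to 2.09 and Ly6a from -0.13 to 0.45, its sign turning without BC44 replicate 1. For values without a test, a pseudocount of 0.1 moved Ly6c1 to 4.94 (BC44 minus HC11), -5.22 (BC44 minus C57MG) and -10.16 (HC11 minus C57MG), and Procr to 8.35 (HC11 minus C57MG). Quantile normalization moved Ly6c1 to -5.24 and -8.20 in the comparisons with C57MG and Cd24a to 0.39 (HC11 minus C57MG), and median-ratio scaling moved Ly6c1 to -5.09 (BC44 minus C57MG). A mean of at least 5 RPKM tests fewer genes. It left 3 protein C, 11 GPI anchor, 4 interferon and 4 neighbouring genes passing in BC44 against C57MG, and 3, 10, 3 and 4 in HC11 against C57MG. Over left-out libraries the other stem-cell antigens passing in BC44 against HC11 ran from 7 to 11, the protein C genes from 2 to 5 and the GPI anchor genes from 10 to 15. The neighbours ran from 5 to 8 in BC44 against C57MG, and the interferon genes from 3 to 7 in HC11 against C57MG. The cause of these changes was not tested. With a pseudocount of 0.1, 0 of the 3 genes most like Ly6c1 and 0 of those most like Procr remained. With the replicate block 5350, 7875 and 7721 of all genes passed (BC44 against HC11, then C57MG against BC44 and against HC11), where 5129, 7713 and 7590 passed without the block. Same-numbered libraries' deviations correlated at 0.354, -0.0387 and 0.0379 across genes, and the labels give the number no meaning, so the libraries were not treated as pairs. The block changed no other call of an antigen gene.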
